A study of Mus musculus with 2 samples.

Results

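Cytochrome P450s and glutathione S-transferases are the enzyme families that oxidise and conjugate steroids, lipids and foreign chemicals. Their genes were described here in wounded mouse skin with and without the vitamin D receptor gene Vdr in keratinocytes. Members were all genes whose symbol in the annotated table had the form of a Cyp, Gst or Mgst gene, apart from Cyp24a1, Cyp27a1, Cyp27b1, Cyp2r1 and Cyp26b1, which act on vitamin D and retinoids. That gave 85 of the 17872 genes on the array, 63 P450s and 22 glutathione S-transferases. Members are counted by symbol unless stated otherwise, and they are 84 genes in RefSeq. The symbols Cyp2b20, detected, and Cyp2b10, not detected, are 1 RefSeq gene but count as 2 members.

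Control mice were C57BL6 animals with the floxed allele, VDR fl/fl, and knockout mice were their littermates with VDR fl/fl and K14 driven Cre. The keratin 14 promoter limits the deletion to keratinocytes and their descendants, so that dermal, immune and vascular cells of the sample keep the gene. Both groups were on a low calcium diet and were 3 months old. The wounds had been made with a 6 mm punch, and the skin was cut out around them with an 8 mm punch after 3 days. One Illumina bead array was run per genotype, and the design text gives RNA of 3 mice in each sample. With 1 array per group there is no replicate check, no test and no p-value for any difference below. Each difference is the knockout's log2 normalized intensity less the control's, from the authors' values, and holds for these 2 arrays alone.

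Vdr had intensities of 2596 in the control and 2076 in the knockout by its bright probe, with 1674 and 1430 by another and 212 and 217 by the remaining one. Whether these probes lie in the deleted stretch is not known here, so they check the labels only weakly. Basal keratinocyte markers with a probe, 8 in number, were detected in both samples, among them Krt14 at 34643 and 35507 and Krt5 at 10274 and 11002. Of 9 liver markers, set out because most P450s are known from liver, none was detected on both arrays. A gene counted as detected when its signal exceeded a floor set from the number of detection p-values under 0.01, which lay at 172.2 in the control and 176.7 in the knockout. For 8933 genes above both floors the median difference was 0.02, and the central 95% lay between -0.58 and 0.65.

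P450s are haem enzymes that insert an oxygen atom into their substrates. Most take electrons from the reductase Por, and families are numbered by sequence likeness, with many members of families 1 to 4 acting on drugs, fatty acids and arachidonic acid. Higher-numbered families mostly act on steroids, sterols and bile acids. Glutathione S-transferases attach the tripeptide glutathione to reactive compounds. The soluble classes are alpha (Gsta), mu (Gstm), omega (Gsto), pi (Gstp), theta (Gstt) and zeta (Gstz), kappa (Gstk) lies in mitochondria and peroxisomes, and the membrane enzymes (Mgst) belong to a separate protein family that includes leukotriene C4 synthase. In skin these enzymes handle lipid peroxides, chemicals applied from outside and local steroids and eicosanoids.

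Glutathione S-transferase genes were broadly detected in the wounded skin and P450 genes mostly were not. Of the 22 transferases, 20 were detected on both arrays (90.9%), and only Gstm3 and Gsto2 stayed below both floors. Of the 63 P450s, 18 were detected on both arrays (28.6%), 1 on the knockout array only and 44 on neither. Over all genes on the array the share detected on both arrays was 50%. None of the 9 Cyp2c genes and neither of the Cyp4a genes was detected, and 1 gene each of 6 Cyp3a, 5 Cyp2d and 5 Cyp2j genes was. The 44 undetected P450s had intensities from 128.7 to 167.4 in the control and from 127 to 168.2 in the knockout, so their differences carry no information.

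Most detected members were close between the arrays. Of the 38 members detected on both, 32 were within 1.5-fold, 4 were at least 1.5-fold higher in the knockout and 2 at least 1.5-fold lower. The corresponding shares were 10.5% higher and 5.26% lower among members, against 3.56% and 2.51% of all 8933 genes. With the raw signals scaled to equal medians instead, the members' counts were 3 and 2 and the shares of all genes 2.23% and 3.18%. After neqc, a background correction, the counts were again 4 and 2 at 1.5-fold, against 7.42% and 4.72% of all genes, and 2 and 0 at 2-fold, against 1.81% and 1.59%. Members were not all of one direction: 23 were higher and 15 lower by any amount, 60.5% and 39.5%, against 53.9% and 46% of all genes. That balance depended on the scaling, since with equal medians 9 P450s were higher and 9 lower, and 9 transferases higher and 11 lower. The median difference was 0.05 over the 18 P450s and 0.04 over the 20 transferases, beside 0.02 over all genes. Under the equal-median scaling the transferases' median turned to -0.02.

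**Figure D1:**
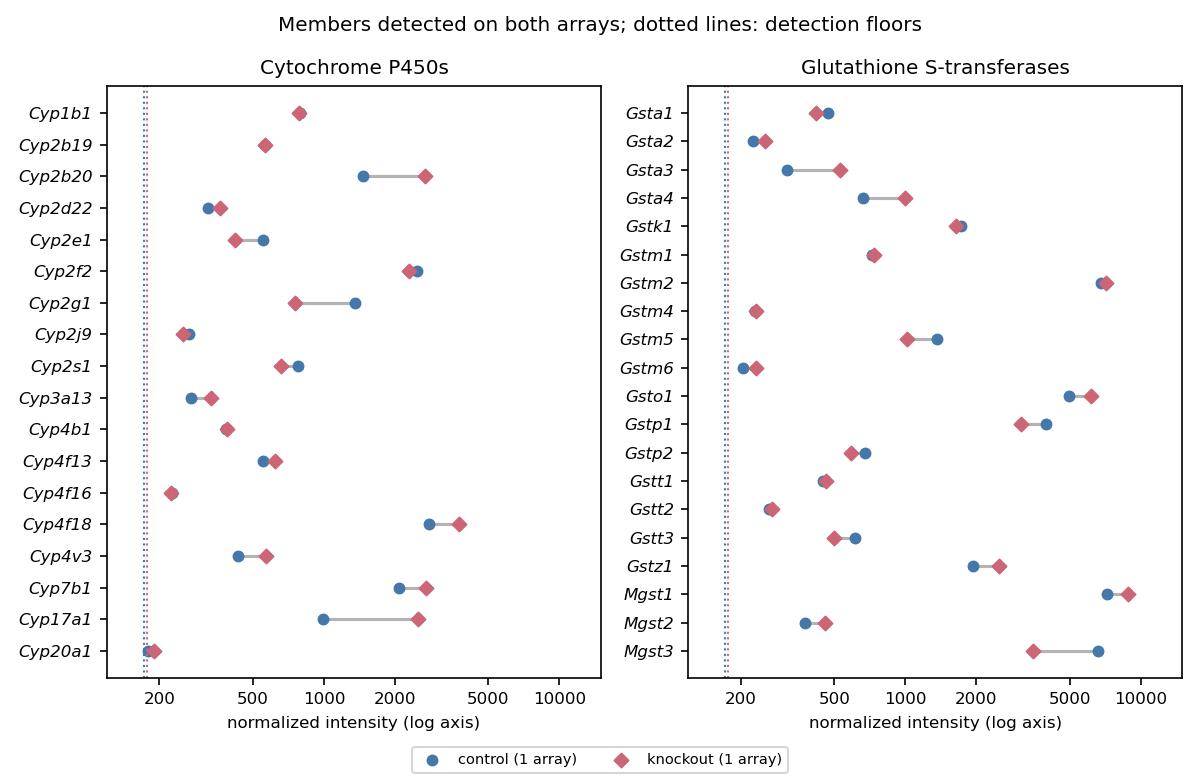
Normalized intensity (log axis) of the 38 members detected on both arrays, 1 circle for the control array and 1 diamond for the knockout array, with the 2 detection floors as dotted lines. Cyp17a1, Cyp2b20, Gsta3 and Gsta4 have the knockout to the right by at least 1.5-fold, and Cyp2g1 and Mgst3 have it to the left; levels of different genes come from different probes and cannot be compared.

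The member with the largest difference was Cyp17a1, the steroid 17-hydroxylase and 17,20-lyase that leads from pregnane steroids to androgens. Its intensity was 988 in control and 2514 in knockout skin, a log2 difference of 1.35, or 2.54-fold higher in the knockout. It was the only member at least 2-fold apart, where 0.739% of all genes were as much higher and 0.907% as much lower. Cyp7b1, the oxysterol 7-alpha-hydroxylase, was at 2089 and 2717, 1.30-fold higher. The steroidogenic P450s that act before and after Cyp17a1 were below the floors on both arrays. These were Cyp11a1, which cleaves the cholesterol side chain, at 166.9 and 168.2, Cyp21a1 at 137.3 and 151.4, the aromatase gene Cyp19a1 at 145.5 and 133.3, and both Cyp11b genes. The bile acid and brain cholesterol hydroxylase genes Cyp7a1, Cyp39a1 and Cyp46a1 were not detected either. Cyp8b1, the sterol 12-alpha-hydroxylase, passed the floor in the knockout alone, with 184.6 beside 160 in the control, at least 1.07-fold higher.

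Family 2, with 31 members, had 8 detected. By any amount 2 were higher and 6 lower in the knockout, beside 53.9% and 46% of all genes. This count was the same under all 3 scalings of these 2 arrays. Of the 6, Cyp2b19, Cyp2j9 and Cyp2f2 had differences of only -0.01, -0.09 and -0.11. The probe named Cyp2b20 read 1467 in the control sample and 2681 in the knockout sample, 1.83-fold higher. Its accession is listed by RefSeq under Cyp2b10, a gene known in mouse liver as a target of the constitutive androstane receptor. The array's separate probe named Cyp2b10 was below the floors, at 152.0 and 152.8, so the 2 probes disagree. Which of the closely related Cyp2b transcripts each binds was not tested, since probe sequences were not used here. Cyp2b19, a keratinocyte arachidonic acid epoxygenase in the mouse, was level at 564 and 561.

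Cyp2g1, first known from olfactory mucosa, had the opposite direction. Its bright probe was at 1351 and 755 and its second probe at 665 and 337, 1.79-fold and 1.98-fold lower in the knockout. Both probes of the gene were thus lower by a like amount, a difference of -0.84 and -0.98. The ethanol-inducible Cyp2e1 was at 549 and 417, 1.31-fold lower, and Cyp2s1, inducible by dioxin, at 777 and 656. Cyp2f2, which activates naphthalene in mouse airways, was at 2488 and 2307. Cyp2d22 and the arachidonic acid epoxygenase Cyp2j9 were at 321 and 362 and at 268 and 252.

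In families 1, 3 and 4 no member was 1.5-fold apart. Cyp1b1, a target of the aryl hydrocarbon receptor that oxidises oestradiol and polycyclic hydrocarbons, was at 794 and 781. The other classical targets, Cyp1a1 and Cyp1a2, were below the floors. Of 10 family 4 genes, the fatty acid omega-hydroxylases, 5 were detected. Cyp4f18, which inactivates leukotriene B4 in mouse neutrophils, was at 2782 and 3738, and its other 2 probes at 759 and 1061 and at 184.5 and 217.2. All 3 probes were higher in the knockout, by 1.34-fold, 1.40-fold and 1.18-fold. Cyp4v3 was at 432 and 570, 1.32-fold higher. Cyp4f13 was at 550 and 618, Cyp4b1 at 383 and 386, and Cyp4f16 at 227 and 223. Cyp3a13 was at 273 and 330, and Cyp20a1, a P450 without a settled substrate, just above the floors at 178.6 and 189.3.

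The alpha class of the transferases held both members that were at least 1.5-fold higher. Gsta3, which in humans also serves as a steroid isomerase, read 315 in the control sample and 529 in the knockout sample, 1.68-fold higher. Its other probe was below the floors, at 145.3 and 165.3. Gsta4, specialised for the lipid peroxidation product 4-hydroxynonenal, was at 663 and 998, 1.51-fold higher, and its log2 difference of 0.59 went to 0.49, under 1.5-fold, with equal-median scaling. Gsta2 was at 225 and 254, while Gsta1, its close relative, was at 468 and 416, so the 4 alpha genes did not share 1 direction. Their median was 0.38.

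Microsomal transferases split. Mgst3, which has glutathione peroxidase activity and can make leukotriene C4, read 6611 in the control sample and 3486 in the knockout sample, 1.90-fold lower, and at 2613 and 1454 by its other probe, 1.80-fold lower. Mgst1, a membrane enzyme active on lipid hydroperoxides, was at 7173 and 8881 by its bright probe and 1555 and 2497 by its other probe. These were 1.24-fold and 1.61-fold higher, the widest disagreement, 0.37 on the log2 scale, among the 8 members with several detected probes. Mgst2, which also makes leukotriene C4, was at 376 and 457. For scale, the SD among a gene's own probes was 0.14 in 2131 genes; it says nothing of how mice vary.

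In the other soluble classes and the kappa class, no detected member was 1.5-fold apart. In the mu class Gstm2 was at 6770 and 7115, Gstm1 at 724 and 736, Gstm4 at 229 and 232, and Gstm6 at 204 and 232. The other probes of Gstm1, at 181.7 and 158.4, and of Gstm6, at 178.1 and 175, passed the floor in the control alone. Gstm5 was the farthest from 0, at 1371 and 1018, 1.35-fold lower. Both pi genes within the naming rule were lower, whereas Gstp3, outside it, was 2.63-fold higher. Gstp1, a major transferase of extrahepatic tissue, was at 3976 and 3105 and at 2500 and 2156 by its second detected probe, and Gstp2 was at 674 and 586. Of the theta genes, Gstt3 was at 614 and 498, 1.23-fold lower, and Gstt1 and Gstt2 were at 448 and 461 and at 265 and 270.4. Gstz1, the maleylacetoacetate isomerase of tyrosine breakdown, was at 1941 and 2504, 1.29-fold higher, and Gsto1, a dehydroascorbate reductase, at 4947 and 6174, 1.25-fold higher. Gstk1 was at 1733 and 1640.2. Gstm1, Gstm4, Gstt1, Gstt2, Cyp4b1 and Cyp4f16, all within 0.05 of 0, changed sign under at least 1 alternative processing.

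**Figure D2:**
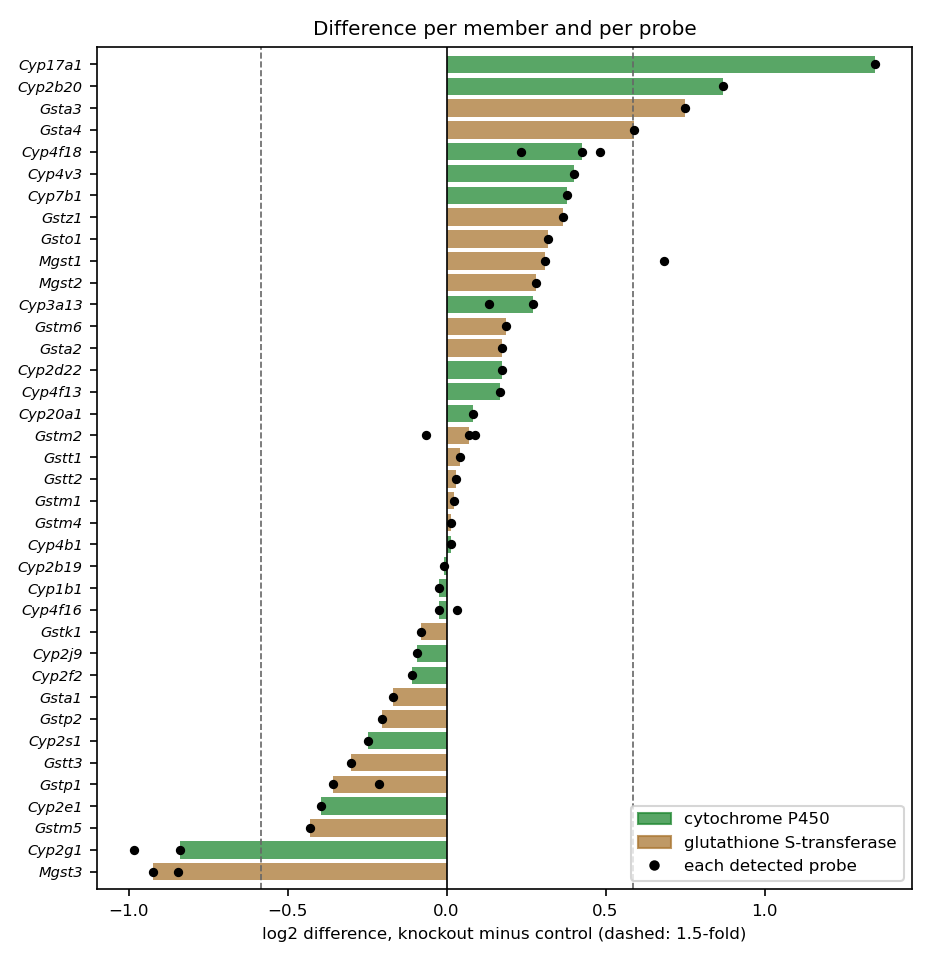
Log2 difference (knockout minus control) of the 38 members, as bars for the brightest probe of each gene and black points for each probe detected on both arrays; dashed lines mark 1.5-fold. Probes of 1 gene lie on the same side of 0 for Mgst3, Cyp2g1, Cyp4f18 and Mgst1, while those of Gstm2 and Cyp4f16 straddle 0.

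Many genes of these families stand side by side in the genome. In RefSeq gene order, with the Cyp2b10 and Cyp2b20 symbols counted as 1 gene, 58 of the 83 genes found there lay in 16 groups with at most 3 other genes between neighbours. In 6 groups more than 1 member was detected, and differences within a group ranged from near-equal to opposite in sign. The Gstm group, with 5 of 6 detected, ran from -0.43 for Gstm5 to 0.19 for the brighter probe of Gstm6. The other Gstm6 probe, above the floor in the control alone, had -0.03. In the group with Cyp2b19, Cyp2g1 and Cyp2f2 the differences were -0.01, -0.84 and -0.11. Gsta4 and Gsta1 are neighbours with differences of 0.59 and -0.17, and Cyp2s1 and Cyp2b20 share a group with -0.25 and 0.87. Gstt1 and Gstt2 had 0.04 and 0.03, and Gstt3 of the same group -0.30. Gstp1 and Gstp2, which are near-identical copies, had -0.36 and -0.20, and signal shared between their probes was not tested.

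Promoter windows from RefSeq, from 250 bases before to 50 bases after the gene's start, were searched for core motifs of the regulators best known for these families. The antioxidant response element, bound by NRF2, was searched as TGACNNNGC and the xenobiotic response element, bound by the aryl hydrocarbon receptor, as GCGTG, both on either strand. The cores can overlap, as in the Gstm5 window. Of 84 genes 68 had a window, and of 38 detected ones 32. The antioxidant core was in 4 of the 32 (12.5%) against 14.8% of 17492 protein-coding genes, and the xenobiotic core in 12 of 32 (37.5%) against 41.4%. Of the 6 members at least 1.5-fold apart, windows of Cyp17a1, Cyp2g1 and Gsta4 were not used here, and those of the other 3 follow, with the first of 2 windows of Mgst1 as the microsomal relative of Mgst3, each read 5′ to 3′ on the gene's strand with motif matches in capitals.
Gsta3, GRCm38.p6, chr1:21240335-21240634, plus strand: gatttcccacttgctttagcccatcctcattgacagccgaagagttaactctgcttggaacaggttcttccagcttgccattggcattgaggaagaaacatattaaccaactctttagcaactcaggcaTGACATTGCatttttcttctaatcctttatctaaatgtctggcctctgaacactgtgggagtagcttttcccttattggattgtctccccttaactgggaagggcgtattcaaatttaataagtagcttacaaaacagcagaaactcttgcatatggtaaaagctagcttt
Cyp2b10, GRCm38.p6, chr7:25897408-25897707, plus strand: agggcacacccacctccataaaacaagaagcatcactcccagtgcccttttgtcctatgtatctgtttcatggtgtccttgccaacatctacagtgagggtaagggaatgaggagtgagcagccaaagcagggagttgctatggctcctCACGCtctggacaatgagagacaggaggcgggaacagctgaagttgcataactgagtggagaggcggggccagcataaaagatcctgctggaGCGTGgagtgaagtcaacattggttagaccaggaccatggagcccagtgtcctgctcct
Mgst3, GRCm38.p6, chr1:167393792-167394091, minus strand: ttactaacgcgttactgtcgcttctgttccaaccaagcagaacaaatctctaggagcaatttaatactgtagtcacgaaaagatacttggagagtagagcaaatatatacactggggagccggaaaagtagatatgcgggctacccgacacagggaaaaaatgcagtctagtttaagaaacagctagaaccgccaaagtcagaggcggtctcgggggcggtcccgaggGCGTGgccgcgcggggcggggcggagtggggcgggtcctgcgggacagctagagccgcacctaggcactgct
Mgst1, GRCm38.p6, chr6:138140277-138140576, plus strand: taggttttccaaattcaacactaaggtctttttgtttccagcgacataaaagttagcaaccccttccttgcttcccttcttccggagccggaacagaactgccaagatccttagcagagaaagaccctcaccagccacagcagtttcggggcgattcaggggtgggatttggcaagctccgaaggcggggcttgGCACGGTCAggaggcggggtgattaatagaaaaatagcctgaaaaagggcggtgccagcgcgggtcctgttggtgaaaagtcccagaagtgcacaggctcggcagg
The Gsta3 window holds TGACATTGC, which begins 121 bases before the start, and the Mgst1 window shown holds an antioxidant core on the opposite strand, 56 bases before it. The second Mgst1 window holds neither core. Mgst3 has a xenobiotic core 22 bases before the start. The window of Cyp2b10, under which RefSeq lists the Cyp2b20 probe, has 2 such cores. Whether that probe reads Cyp2b10 transcripts was not tested. A match is a run of letters and not a shown binding site.

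**Figure D3:**
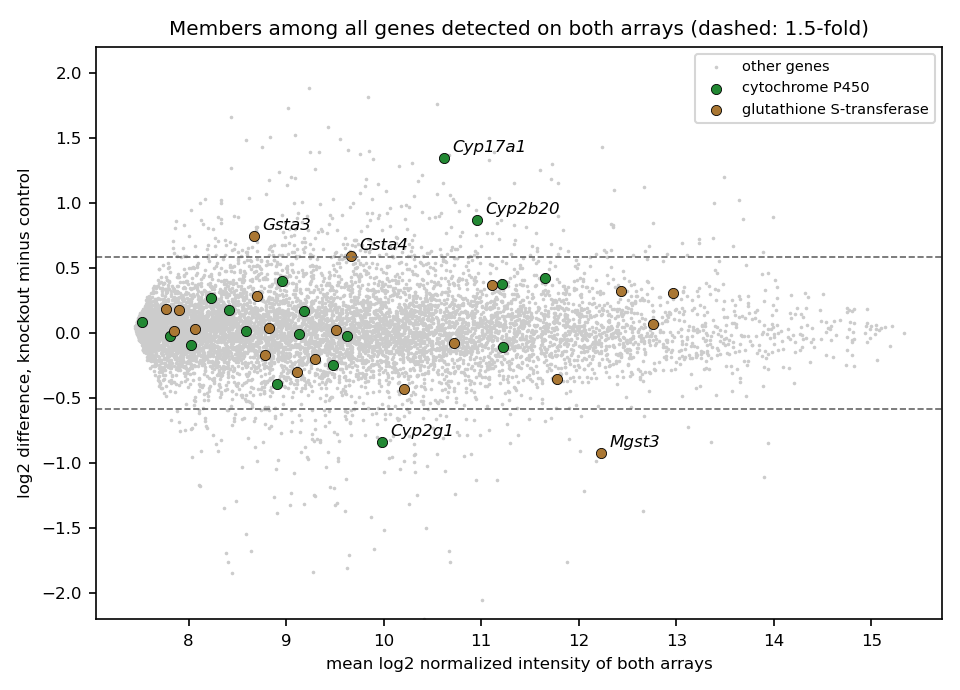
Log2 difference (knockout minus control) against mean log2 intensity for the members (large points) and the other genes detected on both arrays (small grey points); dashed lines mark 1.5-fold, and 31 of 8895 other genes lie beyond the axis limits of 2.2. Cyp17a1, Cyp2b20 and Gsta3 lie above the central 95% of all genes and Cyp2g1 and Mgst3 below it; the other 33 members lie inside it.

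None of the 9 detected genes on the list of P450 electron donors and helper proteins was 1.5-fold apart. That list also holds the haem oxygenase genes Hmox1 and Hmox2, which are not P450 helpers, with differences of 0.01 and 0.19. By any amount 8 of the 9 were higher, or 7 with equal-median scaling, beside 53.9% of all genes, and the median was 0.15. Cyb5b, a mitochondrial cytochrome b5, was at 3804 and 4874, and the cytochrome b5 reductase Cyb5r3 at 3528 and 3912. Por, the electron donor named here for its role after its value was seen, was at 1251 and 1746, 1.40-fold higher.

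Genes of the 2 regulators' batteries outside the members did not share 1 direction. Of 21 detected NRF2 genes, 14 were higher and 7 lower, beside 53.9% and 46% of all genes, with a median of 0.04. With equal-median scaling 10 were higher and 11 lower. Only the aldehyde dehydrogenase Aldh3a1 passed 1.5-fold, at 2364 and 5257, where 3.56% of all genes were as much higher and 2.51% as much lower. The standard NRF2 reporter Nqo1, singled out after the values were seen, was at 342 and 322, and Hmox1 at 1053 and 1058. Of 8 detected genes of the aryl hydrocarbon receptor list, 5 were higher and 3 lower, beside 53.9% and 46% of all genes. Their median was 0.10. The receptor gene Ahr itself, at 138.7 and 150, and Tiparp, at 141.1 and 133.9, were below both floors. Aldh3a1 again and the actin-severing protein gene Scin, at 1577 and 2440, were the ones past 1.5-fold.

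Of the enzymes that make, recycle and use glutathione, 16 of 18 were within 1.5-fold, and the median was 0.07. Both exceptions were lower, where 2.51% of all genes were as much lower and 3.56% as much higher. Chac1, which degrades glutathione, was at 3511 and 743, and the glutathione peroxidase Gpx2 at 1653 and 800.1. Of 9 other conjugating enzymes, 7 stayed within 1.5-fold and 2 were lower by more, beside the same 1.5-fold shares of all genes. These 2 were glycine N-methyltransferase Gnmt at 1620.3 and 190.1 and indolethylamine N-methyltransferase Inmt at 446.5 and 274. Gnmt in the knockout was thus little above the floor of 176.7.

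Of 18 other oxidising and reducing enzymes detected, 16 were higher and 2 lower, or 13 and 5 with equal-median scaling, beside 53.9% of all genes higher. Their median was 0.21, beside 0.02 over all genes. Past 1.5-fold there were 4 higher and 0 lower, beside 3.56% and 2.51% of all genes, and 2 and 0 with equal-median scaling, beside 2.23% and 3.18%. Besides Aldh3a1 these were Akr1c18, a 20-alpha-hydroxysteroid dehydrogenase, at 658 and 1343, the alcohol dehydrogenase Adh1 at 1298 and 1975, and the flavin monooxygenase Fmo5 at 219.8 and 331.9. The other Fmo5 probe was below the floors, at 158 and 154.7. Efflux transporters of conjugates had 4 detected genes, all higher and within 1.5-fold, beside 53.9% of all genes higher. Among them were Abcc3 at 369.9 and 531 and Abcc5 at 415 and 448. After neqc Abcc3 passed 1.5-fold, with a difference of 0.71, while 7.42% of all genes were at least 1.5-fold higher. Of 11 nuclear receptors that control P450 genes, 5 had signal above both floors and their median was 0.36. Pparg, the fat cell and sebocyte regulator, passed 1.5-fold at 658 and 1080.1. Its other probes were below the floors, at 170.5 and 168 and at 159.3 and 142.6. The liver regulators Nr1i2 and Nr1i3 were below the floors.

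Enzymes of eicosanoid synthesis, which share substrates with families 2 and 4, included genes of both directions. Of 14 detected, 8 were higher and 6 lower, beside 53.9% and 46% of all genes, with a median of 0.22. Past 1.5-fold there were 2 higher and 1 lower, beside 3.56% and 2.51% of all genes. The epidermal lipoxygenases Alox12e, at 1363 and 3426, and Alox12b, at 695 and 1112, were higher, and Alox8, the 8-lipoxygenase, was at 625 and 184.4, 3.39-fold lower and close to the floor in the knockout. The prostaglandin D synthase Ptgds had signal above the floor in the control alone, 409, at least 2.31-fold lower in the knockout. Hpgds, the other prostaglandin D synthase and itself a sigma class glutathione transferase outside the naming rule, was at 263 and 244.

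**Figure D4:**
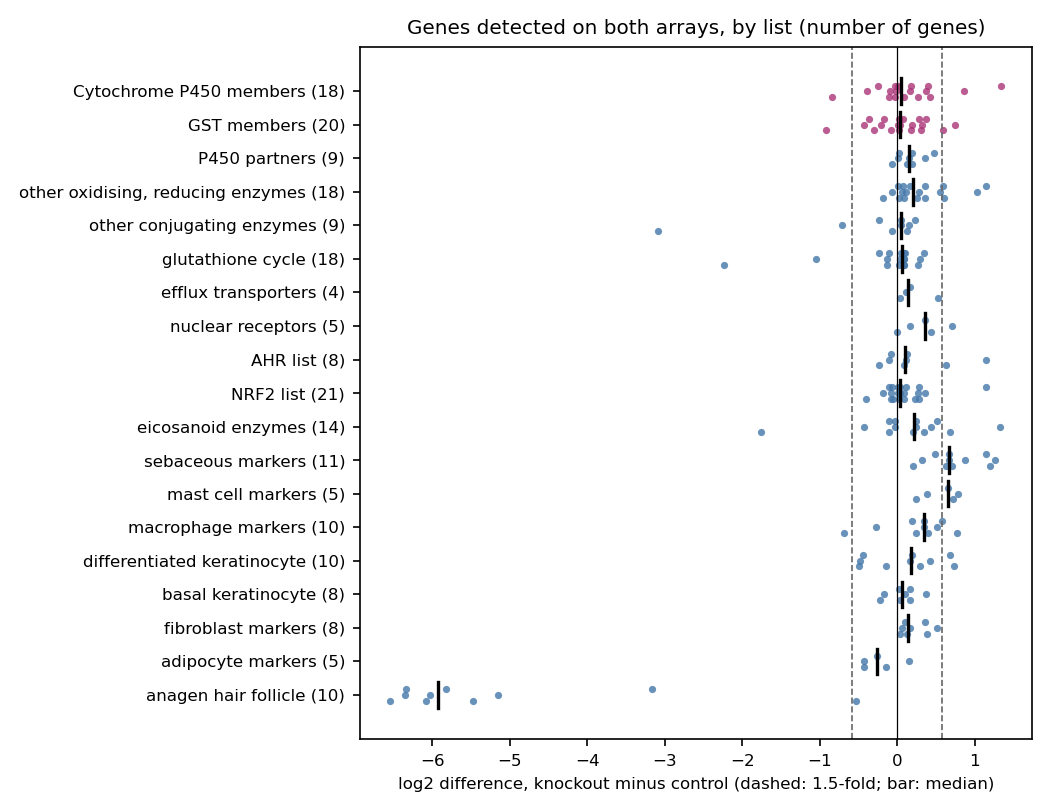
Log2 difference (knockout minus control) of genes detected on both arrays for the P450 and transferase members (purple) and 17 other lists (blue), with 1 point per gene, a bar at the median and dashed lines at 1.5-fold. Both member groups centre near 0, sebaceous and mast cell markers at 0.67 and 0.66, and growing hair follicle markers at -5.92.

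Markers of several skin structures differed between the arrays, so the values of the enzymes stand beside unequal amounts of marker RNA. In whole skin, fewer cells of a type and less RNA per cell cannot be told apart. By any amount, 53.9% of all genes were higher and 46% lower. Sebaceous gland markers were higher, all 11 detected of 13 on the array under each scaling, with a summed intensity of 36764 in the control and 66456 in the knockout and Cidea, Fa2h, Elovl3 and Elovl4 at 1.26, 1.20, 1.15 and 0.88. Growing hair follicle markers were lower, all 10 detected on both arrays with 5 more on the control array only, summed over 17 genes at 173422 and 5421, with Krt34, Krt33a, S100a3 and Krt86 at -6.54, -6.35, -6.34 and -6.08. Mast cell markers were higher, all 5 detected, summed at 15138 and 19484, led by the tryptase Tpsb2 at 314 and 543. The part of these structures in the differences of Cyp17a1, Cyp2b20, Gsta3, Gsta4, Cyp2g1 and Mgst3 was not tested.

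Markers of the other cell types that were detected on both arrays had median differences of smaller size. Macrophage markers had a median of 0.35 over 10 genes, with Ms4a7 at 0.77 and Chil3 at -0.68, and summed to 38038 and 47414. The other Ms4a7 probe was below the floors, at 161 and 161.9. Fibroblast markers had a median of 0.15 over 8, with Dcn at 16383 and 17098 and Col1a1 at 9086 and 11691. Adipocyte markers had a median of -0.27 over 5, with Cfd at 19974 and 16618 and Adipoq at 2134 and 1594. Differentiated keratinocyte markers had a median of 0.18 over 10, with 6 higher and 4 lower, beside 53.9% and 46% of all genes. Their differences ran from 0.73 for Casp14 and 0.68 for Alox12b to -0.49 for Ivl. Basal keratinocyte markers had a median of 0.07 over 8. Liver markers summed to 1366 and 1417 over 9 genes, near the floors, and only Hpx was detected, in the control at 195.5.

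Relatives outside the naming rule were on the array too, 16 P450 and transferase genes by their RefSeq names, of which 10 carry another name in the annotated table. Of these 16, 6 were detected on both arrays, and they were set out after their values were seen. Gstp3, a pi class gene, was at 374 and 981, 2.63-fold higher in the knockout, while Gstp1 and Gstp2 were lower. Cyp51, the lanosterol demethylase of cholesterol synthesis, was at 1421 and 2745, 1.93-fold higher. Cyp4f39, whose human counterpart hydroxylates the very long fatty acids of skin barrier ceramides, was at 1320 and 1931, 1.46-fold higher, and Cyp2b23 at 259.6 and 377, 1.45-fold higher. Of the vitamin D and retinoid enzymes, Cyp27a1 was at 705 and 999 and Cyp26b1 at 225 and 219.8. Cyp24a1, the vitamin D 24-hydroxylase, passed the floor in the control alone, with 191.3 beside 151.9, at least 1.08-fold lower in the knockout.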

How the data were processed

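Total RNA of wounded skin was labelled with biotin and read on Illumina bead arrays, 1 control and 1 knockout, per the labels' protocols. Scanner data went through GenomeStudio 2011.1, per the submitters' processing notes; the sources used here do not give how background was removed or arrays were normalized. The deposited raw table holds linear intensity per probe (25697 probes). The authors' normalized table holds linear intensity with nearly the same quantiles on both arrays, and the series matrix equals it, with 0 probes differing. It is linear and uncentred, with column medians of 169.9. The deposited detection p-values do not follow the row order of the signals (Spearman correlation with the raw signal 0.009 and 0.008), so only their number per array was used: as many of the brightest raw probes as p-values under 0.01 counted as detected, with ties 12599 and 12168 probes, above raw signals of 182.7 and 172.9.

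The difference is log2 of the normalized intensity with no offset, as the detection p-values could not serve the neqc correction directly. Background stays in these values, so differences of dim genes are understated. Where several probes named a gene, the brightest stood for it. Members keep the symbol of the annotated table; other probes were named with RefSeq genes of assembly GRCm38.p6 (of the probes, 7420 matched by accession, 553 by synonym, 465 by symbol and 16938 by Entrez identifier, and 321 did not match). Promoters are RefSeq's for GRCm38.p6. Alternatives were raw signal scaled to equal medians, limma 3.58.1 neqc in R 4.3.3 with p-values reassigned by rank, no detection filter, floors from p-values under 0.05 and 0.001, and the mean of detected probes. The number of arrays limits the precision. The calculation was also run on simulated data whose detection p-values followed the signals, unlike the deposited ones. It therefore does not check detection from p-values out of order, and its results are not given here. Sequence identity between members and probe specificity, which were planned, were not analysed here. Members and lists were chosen with earlier results of these data known. Named were members at least 1.5-fold apart, the brightest of each class, members whose probes disagreed by over 1 on the log2 scale (0) and, per list, up to 4 genes past 1.5-fold or else the brightest 2; the remaining detected members were added.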

Additional observations from a re-analysis of the deposited data

How the results depend on the processing

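Counts of members and medians of both families were recomputed under 6 alternatives. The 4 higher members were Cyp17a1, Cyp2b20, Gsta3 and Gsta4 under each, except that Gsta4 went to 0.49 with raw signals scaled to equal medians, which left 3; the 2 lower ones, Cyp2g1 and Mgst3, were the same under all 6. Members at least 2-fold higher went from 1 to 2 with neqc background correction, where Gsta3 reached 1.06, and members at least 2-fold lower from 0 to 1 with equal-median scaling, where Mgst3 reached -1.02. Without a detection filter the members counted went from 38 to 85 by construction, and with floors from p-values under 0.05 and 0.001 to 40 and 37. The P450 median ran from -0.00 without a filter to 0.11 with neqc, and the transferase median from -0.02 to 0.06. Over all genes, 318 were at least 1.5-fold higher and 224 lower, against 663 and 422 with neqc and 199 and 284 with equal-median scaling. Of 227 recomputed member differences, 6 moved by more than the probe SD of 0.14, and none of a member 1.5-fold apart changed sign. No paired analysis was possible because each group has 1 array. The cause of these shifts was not tested. Dim members, such as Cyp20a1, Gstm6 and Gsta2, are limited by signal close to background.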
